A study of Mus musculus with 7 samples.

Results

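The transcripts described here encode ligands and receptors of the VEGF and angiopoietin systems, the principal growth factor systems of blood and lymphatic vessels. They are 10 genes, chosen by name from the 42256 genes of a deposited count table, and comprise 4 ligand genes (Vegfa, Vegfb, Angpt1 and Angpt2) and 6 receptor genes (Kdr, Flt1, Flt4, Nrp1, Tek and Tie1). All 10 passed the filter on low counts. The RNA came from whole kidneys of 7 adult male mice of a mixed 129S1/Sv x C57BL/6 background, 3 labelled CDH11+/+ and 4 labelled CDH11-/- for cadherin-11, an adhesion molecule of mesenchymal cells. Every mouse in either group had been uninephrectomized, had carried an osmotic pump delivering angiotensin II at 800 ng/kg/min, and was killed at 4 weeks. There was no kidney without this injury, so a difference already present before it cannot be told apart from a different response to it. Whether the libraries are separate animals rests on the study's count of 3 and 4 mice. How the Cdh11 allele was made is not stated by the labels.

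In the kidney, VEGF-A is made by podocytes and tubular epithelium and acts on receptors of the neighbouring capillary endothelium. KDR, also called VEGFR2, carries most of its signal, FLT1 (VEGFR1) binds it tightly and, as a soluble splice form, withholds it, and NRP1 is a co-receptor. Angiopoietin-1, made by perivascular and mesangial cells, activates the endothelial receptor TEK (TIE2) and stabilizes vessels, while angiopoietin-2, released by endothelium, modifies or opposes that signal and TIE1 is a partner of TEK without a well-defined ligand of its own.

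Total counts ran from 72087906 to 84786351 per library, and 17964 genes were tested. The libraries labelled CDH11-/- did not contain less Cdh11 RNA, with 6.79, 4.52 and 10.8 CPM (counts scaled to a common library size) in the CDH11+/+ libraries and 11.3, 9.56, 11.6 and 10.98 CPM in the CDH11-/- libraries. The Cdh11 log2 fold change was 0.56 (adjusted p = 0.14, edgeR). It was called without CDH11+/+ replicate 3 (0.93, adjusted p = 0.0043, edgeR) and with limma-voom (0.75, adjusted p = 0.0227). It was 0.30 without CDH11+/+ replicate 2 (adjusted p = 0.245), 0.24 with limma-trend on the deposited values (adjusted p = 0.665) and 0.079 with offsets from the authors' factors (adjusted p = 0.888), none of them called. A gene total hides which exons were read, so the target gene cannot check the labels, and each direction below is between libraries labelled CDH11-/- and libraries labelled CDH11+/+. One library stood apart, CDH11+/+ replicate 3, in which the summed level of 4 genes of the Y chromosome (Ddx3y, Eif2s3y, Kdm5d and Uty) was 64.7 CPM, against 110.8 to 144.9 CPM in the other 6. Kidney and vessel markers were present in every library. None of the 12 endothelial, 10 podocyte or 10 proximal tubule markers was at 0.

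To show the sequence at gene starts, promoter windows of 5 members (Vegfa, Flt1, Kdr, Tek and Tie1) are given here. Each runs from 250 bases before to 50 bases after a RefSeq start on GRCm38.p6, the assembly of mm10. RefSeq windows were matched for 8 of the 10 members, all except Angpt1 and Angpt2. Capitals mark every match, on either strand, to short motifs of known factor families. GGAAGT is a core recognized by ETS factors. GATA factors, which like ETS factors act in endothelium, recognize GATAAG. SP1-type factors bind GGGCGG. The core bound by hypoxia-inducible factors was searched as ACGTG and, separately, as GCGTG.
Vegfa (chr17:46032328-46032627, minus strand): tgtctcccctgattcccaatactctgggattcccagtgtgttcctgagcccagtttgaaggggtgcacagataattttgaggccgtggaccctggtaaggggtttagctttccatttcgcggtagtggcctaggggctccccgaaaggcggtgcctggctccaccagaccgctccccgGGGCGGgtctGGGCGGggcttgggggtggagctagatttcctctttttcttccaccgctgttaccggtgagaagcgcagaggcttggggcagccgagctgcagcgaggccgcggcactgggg
Flt1 (chr5:147725962-147726261, minus strand): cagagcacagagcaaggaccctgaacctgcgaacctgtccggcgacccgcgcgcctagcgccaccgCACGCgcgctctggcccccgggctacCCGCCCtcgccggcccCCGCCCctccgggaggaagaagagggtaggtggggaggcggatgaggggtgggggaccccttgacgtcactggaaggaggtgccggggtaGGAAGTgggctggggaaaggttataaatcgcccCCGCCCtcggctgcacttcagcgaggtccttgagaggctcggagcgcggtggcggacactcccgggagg
Kdr (chr5:75978406-75978705, minus strand): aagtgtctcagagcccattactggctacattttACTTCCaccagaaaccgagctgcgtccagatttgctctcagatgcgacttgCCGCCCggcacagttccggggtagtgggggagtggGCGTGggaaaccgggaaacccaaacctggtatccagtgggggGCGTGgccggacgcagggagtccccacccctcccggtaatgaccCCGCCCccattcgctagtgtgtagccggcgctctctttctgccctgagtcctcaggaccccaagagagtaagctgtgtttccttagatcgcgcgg
Tek (chr4:94739039-94739338, plus strand): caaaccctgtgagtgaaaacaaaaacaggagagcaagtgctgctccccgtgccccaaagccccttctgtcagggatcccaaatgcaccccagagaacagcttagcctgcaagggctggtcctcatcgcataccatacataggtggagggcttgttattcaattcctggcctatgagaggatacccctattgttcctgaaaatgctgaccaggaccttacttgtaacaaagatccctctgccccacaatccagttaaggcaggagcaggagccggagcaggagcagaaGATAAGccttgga
Tie1 (chr4:118489800-118490099, minus strand): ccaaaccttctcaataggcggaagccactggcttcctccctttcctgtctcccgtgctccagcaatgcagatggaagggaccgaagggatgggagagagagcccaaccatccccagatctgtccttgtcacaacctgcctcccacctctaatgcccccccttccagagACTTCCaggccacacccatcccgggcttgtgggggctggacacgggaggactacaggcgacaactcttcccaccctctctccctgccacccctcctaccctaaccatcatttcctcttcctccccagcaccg

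The windows of Flt1, Kdr and Tie1 each held 1 GGAAGT match, a motif present in 23.8% of all 32851 RefSeq promoter windows. The Tek window held no GGAAGT and 1 GATAAG match, found in 7.44% of all windows. The Nrp1 window, not shown, held 0 GGAAGT and 0 GATAAG matches, 1 GCGTG match and 1 GGGCGG match. GGGCGG occurred 3 times in the Flt1 window and 2 times each in those of Kdr and Vegfa, and in 35.7% of all windows at least once. The Tek and Tie1 windows contained 3 and 7 CpG dinucleotides, whereas those of Vegfa, Kdr and Flt1 contained 16, 19 and 29. Of the hypoxia cores, GCGTG occurred 2 times in the Kdr window and 1 time in that of Flt1, and the Tek and Tie1 windows held neither. The Vegfa window shown held neither hypoxia core, and Vegfa has another RefSeq start, at an internal position, whose window held 1 match to each (19.6% of all windows hold the first of these cores, ACGTG, and 32.4% the other). Sequence beyond these windows, including further upstream, was not searched for the motifs. The promoter sequence was shown as context, since the data measure transcripts and not binding at these windows.

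Transcripts of Vegfa, Flt1, Nrp1, Tek and Tie1 were lower in the kidneys labelled CDH11-/-, and no member was called higher. The decreases of 4 of these genes were of about the same size, 1.19-fold to 1.25-fold, and Flt1 stood further off at 1.61-fold. In all, 5 of 10 members were called lower at an adjusted p under 0.05, beside 12.9% of all genes tested, and 0 of 10 were called higher, beside 16.8% (29.7% of all genes were called in either direction). Kdr, also lower, was not called but had an unadjusted p of 0.043 (edgeR). The share of all genes with an unadjusted p under 0.05 was not counted. The groups did not overlap in 6 members, each lower in the CDH11-/- libraries (of all genes tested, 38.5% were separated, 16.6% in that direction and 21.9% in the other). The median log2 fold change of the 10 members was -0.29, against -0.01 over all genes tested. Of these calls, 3 (Vegfa, Flt1 and Nrp1) were left without CDH11+/+ replicate 1.

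**Figure D1:**
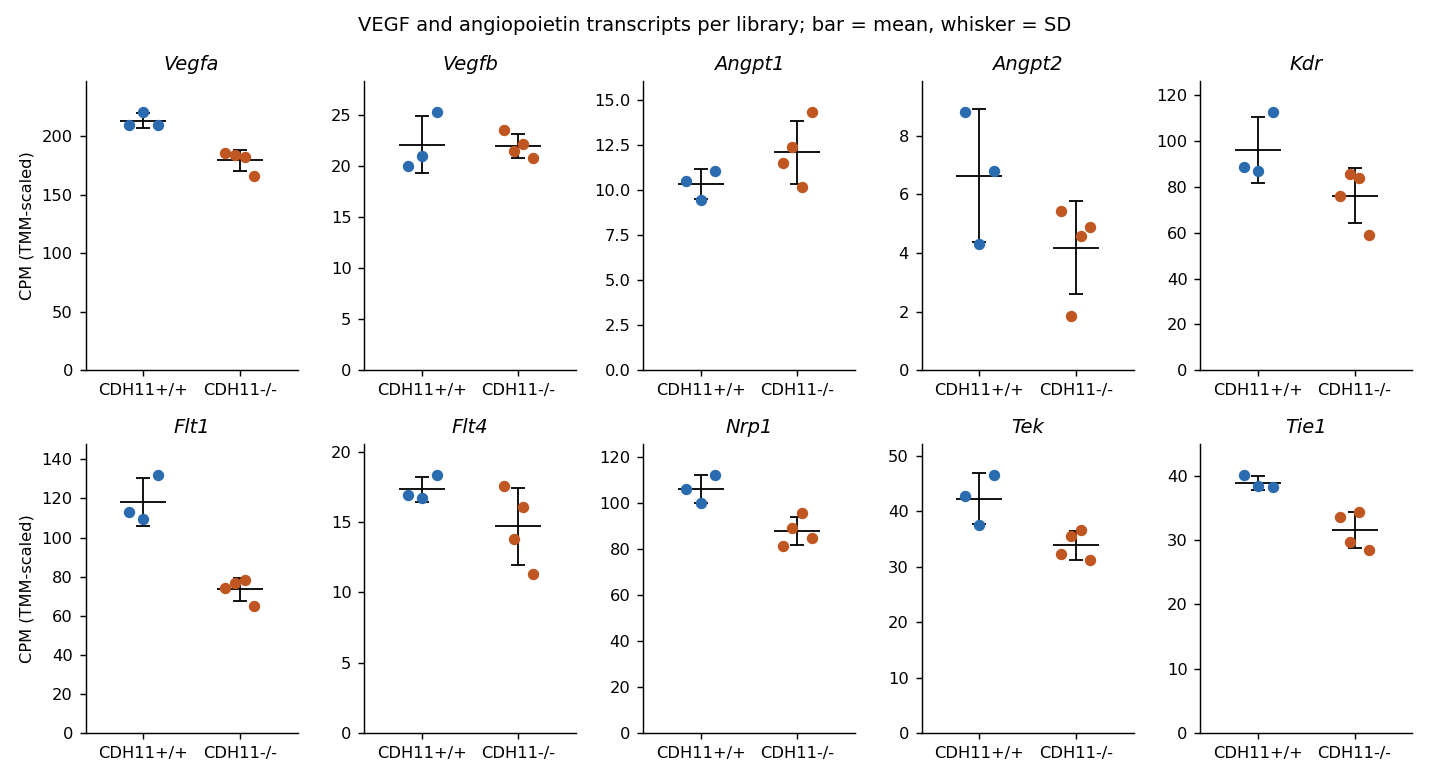
CPM (y axis, from 0) of each of the 10 genes in the 3 CDH11+/+ and 4 CDH11-/- libraries (x axis), with 1 point per library, the mean as a bar and the SD as whiskers. The points of the groups are separate for Vegfa, Kdr, Flt1, Nrp1, Tek and Tie1 and overlap for Vegfb, Angpt1, Angpt2 and Flt4.

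Among the ligands, Vegfa was the most abundant and the only one called. Vegfa (ENSMUSG00000023951, mm10 chromosome 17, 46016993 to 46032369, minus strand) stood at 209.5, 220.7 and 209.8 CPM in the CDH11+/+ libraries and at 185.3, 184.0, 182.2 and 165.8 CPM in the CDH11-/- libraries. All 4 CDH11-/- libraries lay below all 3 of the others, with replicate 4 the lowest. Group means were 213 ± 6.39 CPM (SD, n = 3) and 179 ± 9.11 CPM (SD, n = 4), and the log2 fold change was -0.25 (SE 0.06, adjusted p = 0.0158, edgeR). Without CDH11+/+ replicate 2 the adjusted p was 0.0558 (edgeR).

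Vegfb, which encodes a ligand of FLT1 linked to fatty acid uptake by endothelium, did not pass the test. Vegfb (ENSMUSG00000024962, chromosome 19, 6982473 to 6987651, minus strand) had 20.0, 21.0 and 25.3 CPM in the CDH11+/+ libraries and 23.6, 21.5, 22.2 and 20.8 CPM in the CDH11-/- libraries. The CDH11-/- values lay inside the CDH11+/+ range. The log2 fold change was -0.01, with a 95% confidence interval from -0.21 to 0.19.

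The angiopoietin transcripts were scarce and neither was called. Angpt1 (ENSMUSG00000022309, chromosome 15, 42424723 to 42676977, minus strand) had 10.5, 9.44 and 11.05 CPM against 11.5, 12.4, 10.2 and 14.3 CPM, with overlapping groups and CDH11-/- replicate 4 the highest. Its log2 fold change was 0.23 (95% confidence interval from -0.04 to 0.49), the only positive value among the 10 members. Exons of Angpt1 overlap those of Gm17473 on the opposite strand, so reads of these genes cannot be told apart unless strand was used in counting. The libraries were directional, per the labels, and the strand setting of the counting is not stated there.

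Angpt2 (ENSMUSG00000031465, chromosome 8, 18690263 to 18741562, minus strand) was the most variable member, with 8.80, 4.29 and 6.81 CPM in the CDH11+/+ libraries and 5.43, 1.84, 4.58 and 4.87 CPM in the CDH11-/- libraries. CDH11-/- replicate 2 was lowest and the groups overlapped. The SD was 34.0% of the mean in the CDH11+/+ group and 38.2% in the CDH11-/- group, while over the members the median of these percentages was 9.14% and 8.58%. The log2 fold change of -0.66 had a 95% confidence interval from -1.53 to 0.21 (adjusted p = 0.226, edgeR), so a decrease of the size seen for Flt1 could not be told from none. The gene lies inside Mcph1, on the other strand, without shared exonic bases, and 83.9 Mb from Cdh11 on the same chromosome.

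Of the receptors, Flt1 showed the clearest difference. Flt1 (ENSMUSG00000029648, chromosome 5, 147561604 to 147726011, minus strand) stood at 113.0, 109.3 and 132.1 CPM in the CDH11+/+ libraries and at 74.1, 77.0, 78.2 and 65.1 CPM in the CDH11-/- libraries. The highest CDH11-/- library was well below the lowest CDH11+/+ library. The CDH11+/+ mean was 118 ± 12.3 CPM (SD, n = 3) and the CDH11-/- mean 73.6 ± 5.93 CPM (SD, n = 4), which is 1.61-fold lower, with a log2 fold change of -0.68 (SE 0.09, adjusted p = 0.00069, edgeR). Offsets taken from the factors behind the authors' normalized values, an alternative added after seeing the data, gave a log2 fold change of -0.75. Counts summed over a gene do not separate the soluble from the membrane form of FLT1.

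Kdr, the main signalling receptor, was not called although its groups did not overlap. Kdr (ENSMUSG00000062960, chromosome 5, 75932827 to 75978458, minus strand) had 88.7, 86.7 and 112.7 CPM in the CDH11+/+ libraries and 76.1, 85.4, 84.0 and 59.1 CPM in the CDH11-/- libraries. CDH11+/+ replicate 3 and CDH11-/- replicate 4 lay away from the rest, and the closest libraries of the groups were 86.7 and 85.4 CPM. The log2 fold change was -0.34 (SE 0.14, 95% confidence interval from -0.66 to -0.01, unadjusted p = 0.043, adjusted p = 0.11, edgeR). The interval includes the sizes found for Tek, Tie1 and Nrp1.

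Flt4, the VEGF-C and VEGF-D receptor of lymphatic and fenestrated endothelium, was not called. Flt4 (ENSMUSG00000020357, chromosome 11, 49609263 to 49652739, plus strand) had 16.9, 16.7 and 18.4 CPM against 17.6, 13.8, 16.1 and 11.3 CPM. CDH11-/- replicate 1 lay inside the CDH11+/+ range and replicate 4 far below it. The log2 fold change was -0.24 (95% confidence interval from -0.54 to 0.07, adjusted p = 0.222, edgeR).

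The co-receptor gene Nrp1 (ENSMUSG00000025810, chromosome 8, 128358604 to 128503363, plus strand) had 106.1, 99.9 and 112.3 CPM in the CDH11+/+ libraries and 81.3, 89.2, 95.5 and 84.8 CPM in the CDH11-/- libraries. All CDH11-/- values were under all CDH11+/+ values. Group means were 106 ± 6.21 CPM (SD, n = 3) and 87.7 ± 6.13 CPM (SD, n = 4), and Nrp1 had a log2 fold change of -0.28 (SE 0.07, adjusted p = 0.0186, edgeR). This call held without each library in turn (adjusted p of up to 0.0494). Nrp1 lies 25.6 Mb from Cdh11 on the same chromosome.

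Tek and Tie1, the angiopoietin receptor and its partner, were lower to nearly the same extent. Tek (ENSMUSG00000006386, chromosome 4, 94739289 to 94874976, plus strand) had 42.7, 37.5 and 46.6 CPM in the CDH11+/+ libraries and 32.3, 35.5, 36.7 and 31.1 CPM in the CDH11-/- libraries. The groups were separated by less than 1 CPM, between CDH11+/+ replicate 2 and CDH11-/- replicate 3. The Tek log2 fold change was -0.32 (SE 0.09, adjusted p = 0.0235, edgeR), and the call was lost without CDH11+/+ replicate 1 (adjusted p = 0.0667), CDH11+/+ replicate 3 (0.0608), CDH11-/- replicate 1 (0.056) or CDH11-/- replicate 4 (0.0572).

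Tie1 (ENSMUSG00000033191, chromosome 4, 118471191 to 118490061, minus strand) had 40.2, 38.4 and 38.2 CPM in the CDH11+/+ libraries and 33.6, 29.8, 34.5 and 28.6 CPM in the CDH11-/- libraries. The CDH11+/+ libraries were close together, and all CDH11-/- libraries were lower. The log2 fold change was -0.30 (SE 0.08, adjusted p = 0.0167, edgeR), with an adjusted p of 0.0619 without CDH11+/+ replicate 1.

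**Figure D2:**
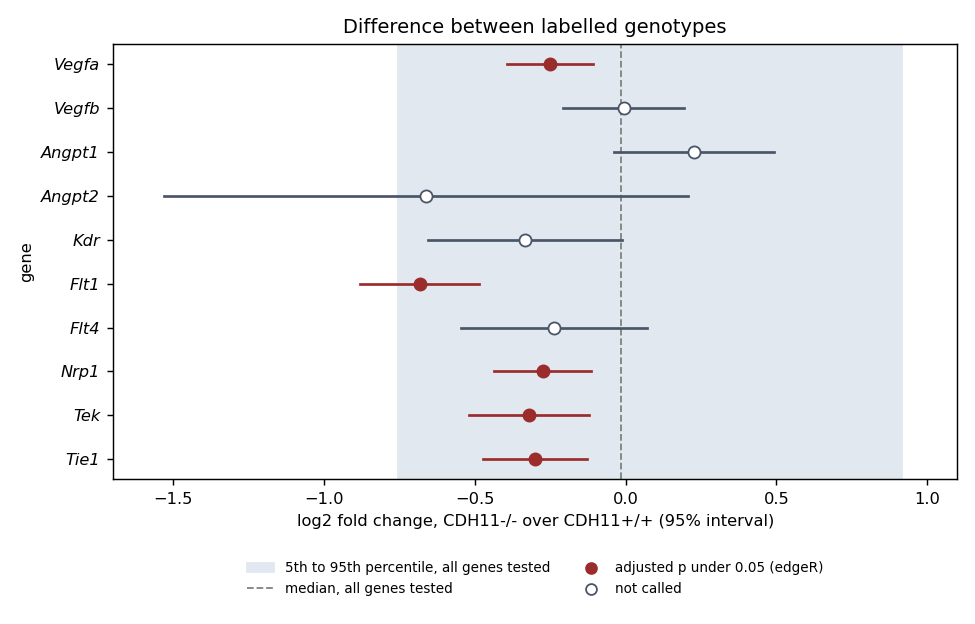
Log2 fold change of each member, CDH11-/- over CDH11+/+ (x axis), with its 95% confidence interval, by gene (y axis). Filled points were called at an adjusted p under 0.05, the grey band spans the 5th to 95th percentile of all genes tested (-0.75 to 0.91), and the dashed line is their median. Flt1 has the lowest called value, -0.68, and the widest interval is that of Angpt2.

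Levels of different genes were compared only per length, as CPM per kilobase of annotated exon (RPKM, on the union of GENCODE M21 exons). In the CDH11+/+ libraries Vegfa led with 49.8 ± 1.49 RPKM (SD, n = 3), followed by Vegfb with 13.8 ± 1.75 RPKM. Nrp1 (10.8), Kdr (10.6), Tek (8.97), Flt1 (8.75) and Tie1 (7.92 RPKM) came next. In that order the ranges of each gene and the next overlapped. Within each CDH11+/+ library Kdr was above Tek and Flt1 above Tie1. The order of Nrp1 and Kdr, and that of Tek and Flt1, differed between these libraries. Flt4 (2.11), Angpt1 (1.99) and Angpt2 (1.80 RPKM) were lowest and their ranges overlapped likewise, with Flt4 above Angpt1 in each CDH11+/+ library. In the CDH11-/- libraries the order was the same except that Flt1 (5.45 RPKM) stood below Tie1 (6.43 RPKM) and Angpt1 (2.32 RPKM) above Flt4 (1.79 RPKM).

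Ratios between members were calculated in each library on the same per-length levels, as a description and without a test. The Flt1 to Kdr ratio was 0.852, 0.843 and 0.784 in the CDH11+/+ libraries and 0.652, 0.602, 0.623 and 0.736 in the CDH11-/- libraries, so the groups did not overlap. The Vegfa to Flt1 ratio was 5.84, 6.36 and 5.003 against 7.88, 7.53, 7.34 and 8.03, higher in each CDH11-/- library. By contrast the Vegfa to Kdr ratio, 3.92 to 5.36 against 4.54 to 5.91, and the Tek to Tie1 ratio, 1.02 to 1.27 against 1.002 to 1.24, overlapped between groups. The Angpt2 to Angpt1 ratio was 1.18, 0.641 and 0.869 against 0.667, 0.210, 0.634 and 0.480, with 1 CDH11-/- library inside the CDH11+/+ range.

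CDH11+/+ replicate 3 was the highest of its group in 7 of 10 members, and CDH11-/- replicate 4 was the lowest of its group in 7 of 10. The order differed between members, with CDH11+/+ replicate 3 the lowest of its group for Tie1 and CDH11-/- replicate 4 the highest for Angpt1. How often these libraries were highest or lowest over all genes was not counted. Among the 12 endothelial markers the same libraries were highest and lowest of their groups in 5 and 7.

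Some endothelial transcripts apart from the members differed as well. Of 12 endothelial markers, 4 were called lower (Ptprb, Pecam1, Erg and Cldn5), beside 12.9% of all genes tested, and 0 were called higher, beside 16.8%. The other 8 were not called, and the median log2 fold change of the 12 markers was -0.28. Their summed level was 430 to 534 CPM in the CDH11+/+ libraries and 368 to 409 CPM in the CDH11-/- libraries. Their geometric mean was 1 value per library, and its log2 difference was -0.29 (exact permutation test, 2-sided, p = 0.0571). In bulk tissue, fewer endothelial cells, less RNA per endothelial cell and a larger share of RNA from other cells cannot be told apart.

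Each receptor was therefore also expressed relative to these 12 markers, as log2 receptor CPM minus the mean log2 CPM of the markers. Flt1 remained apart, at 2.26, 2.44 and 2.45 in the CDH11+/+ libraries and 1.90, 2.18, 1.996 and 1.89 in the CDH11-/- libraries. The groups did not overlap, and the difference of the means was -0.39, or 1.31-fold lower (exact permutation test, 2-sided, p = 0.0571, and 0.343 adjusted over the 6 receptors). That p is the smallest this test can give with 35 groupings of 3 and 4 libraries, because it doubles the smaller tail. For Tek, Tie1 and Nrp1 the differences were -0.02, -0.01 and 0.02, under the pooled SD between replicates of 0.119, 0.0954 and 0.125. Kdr and Flt4 differed by -0.04 and 0.04, with pooled SDs of 0.214 and 0.168, and for these 5 receptors the exact permutation p was 0.8 or more. With Cdh5 and Pecam1 alone as the reference, or with the deposited normalized values, the Flt1 difference was -0.39 and -0.44.

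**Figure D3:**
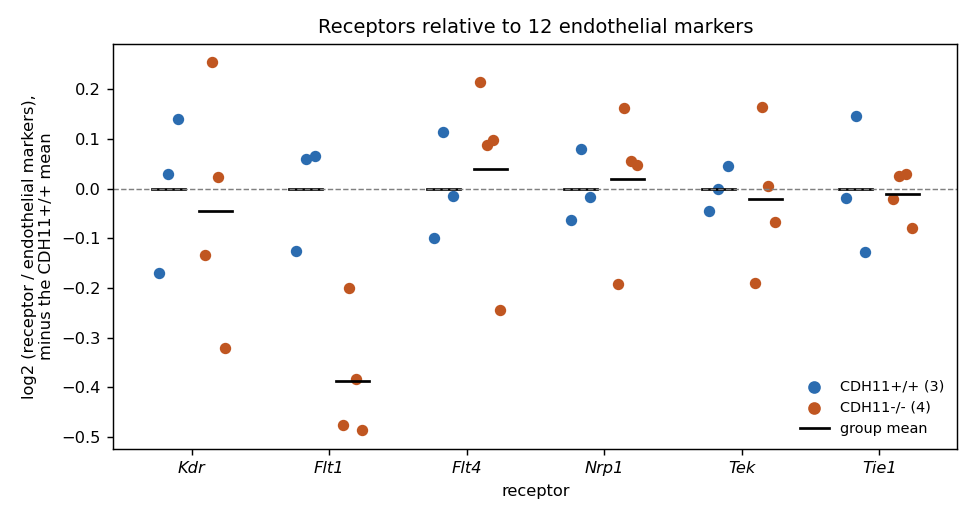
Log2 ratio of each receptor to the 12 endothelial markers (y axis), shown as the difference from the CDH11+/+ mean, by receptor (x axis), with 1 point per library and the group mean as a line. Points of the groups are intermingled for Kdr, Flt4, Nrp1, Tek and Tie1, while all 4 CDH11-/- points of Flt1 lie below its 3 CDH11+/+ points, with means 0.39 apart.

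**Figure D4:**
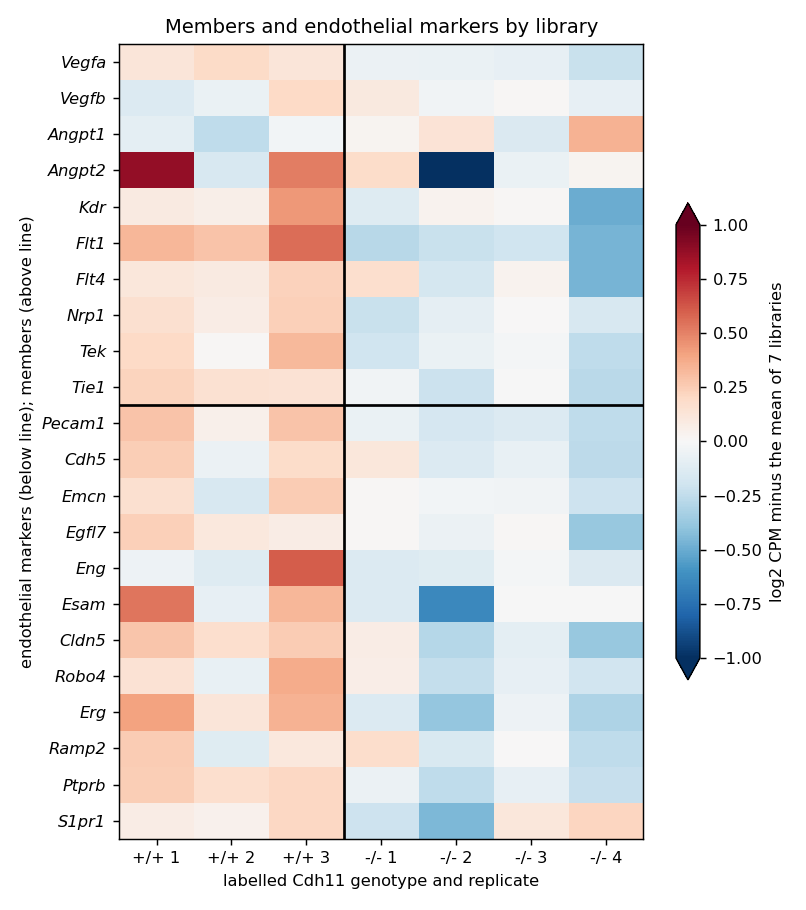
Log2 CPM minus the mean of the 7 libraries (colour, cut at -1 and 1) for the 10 members (above the line) and the 12 endothelial markers (below it), by library (columns, labelled genotype and replicate). Most rows turn from red to blue at the line between genotypes, Vegfb and Angpt1 do not, and Angpt2 in CDH11-/- replicate 2 is beyond the scale.

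Markers of the cells that make VEGF-A and of other nephron segments also differed between the groups. Of 10 podocyte markers 6 were called lower and 0 higher, beside 12.9% and 16.8% of all genes tested. The summed level of these markers was 504 to 603 CPM in the CDH11+/+ libraries and 348 to 459 CPM in the CDH11-/- libraries. Podxl was a large part of this level, with group means of 249 and 176 CPM. Wt1, a transcription factor of podocytes, was 1.79-fold, the phosphatase gene Ptpro 1.39-fold and Podxl, which encodes podocalyxin, 1.41-fold lower (adjusted p = 0.00124, 0.00532 and 0.00569, edgeR). Of 10 proximal tubule markers 6 were called higher and 0 lower, among them the phosphate transporter gene Slc34a1 (2.20-fold), the fatty acid gene Slc27a2 (1.48-fold) and the organic anion transporter gene Slc22a6 (1.497-fold), and the summed level was 9518 to 10904 CPM against 14258 to 15914 CPM. The parts of podocytes and proximal tubule in the Vegfa result were not tested.

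Of 12 pericyte, mesangial and fibroblast markers, from the cells that make angiopoietin-1, 4 were called lower and 2 higher, and their summed levels overlapped (351 to 482 against 384 to 457 CPM). Of all genes tested 12.9% were called lower and 16.8% higher, so the count called higher was at the share of all genes. Pdgfrb and Notch3, genes of mural cells, were 1.27-fold lower each, and the fibrillar collagen gene Col1a1 was 2.48-fold higher. Notch3 was not called without CDH11+/+ replicate 1 or 3 or CDH11-/- replicate 3. The Notch3 log2 fold change was also not called with offsets from the authors' factors (-0.22, adjusted p = 0.308) or with limma-trend on the deposited values (-0.25, adjusted p = 0.264). Col1a1 was not called without CDH11+/+ replicate 1 or CDH11-/- replicate 1, 3 or 4, nor was the Col1a1 log2 fold change with no filter on low counts (adjusted p = 0.0756). The count called lower was 1 without CDH11+/+ replicate 1 or CDH11-/- replicate 3 and 2 without CDH11+/+ replicate 3 or CDH11-/- replicate 2 or 4. The count called higher was 0 without CDH11+/+ replicate 1 or CDH11-/- replicate 1 or 3 and 1 without CDH11+/+ replicate 2 or CDH11-/- replicate 2 or 4. Their part in the Angpt1 value was not tested.

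Among vessel subtypes, 4 of 8 glomerular and arterial endothelial markers were called lower and 1 higher, beside 12.9% and 16.8% of all genes tested. Those lower were led by the arterial genes Efnb2 (1.66-fold) and Sox17 (1.63-fold). Without CDH11+/+ replicate 1 or CDH11-/- replicate 4, the count called lower was 2 of 8. The 1 called higher was Lpl, lipoprotein lipase, at 157 ± 7.39 CPM (SD, n = 3) against 579 ± 93.4 CPM (SD, n = 4). Lpl is made by other cells too, and it sets the summed level of this list (352 to 410 against 647 to 843 CPM). Of 6 lymphatic markers 1 (Reln) was called higher and 0 lower, with 1 lower without CDH11+/+ replicate 2 or CDH11-/- replicate 4. The summed lymphatic level overlapped between groups (22.5 to 32.4 against 24.0 to 31.7 CPM). In both of these lists the count called higher was near the share of all genes. Their parts in the Flt1 and Flt4 values were not tested.

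Of all genes tested 12.9% were called lower and 16.8% higher, and the counts of 8 thick ascending limb markers were near these shares. Among them Kcnj1 was called lower and Cldn10 higher (summed level 6034 to 7606 against 5209 to 5854 CPM). Without CDH11+/+ replicate 1 or 2 or CDH11-/- replicate 2, 0 of these were called higher, and without CDH11+/+ replicate 2 or 3, 3 were called lower. Of 8 collecting duct markers 5 were called lower, among them Scnn1g, Avpr2 and Aqp3, and 0 higher (448 to 642 against 350 to 408 CPM), with 3 lower without CDH11+/+ replicate 1 or CDH11-/- replicate 1 or 3 and 2 without CDH11-/- replicate 2. Aqp3 was not called without CDH11-/- replicate 2 or 4. Of 9 tested macrophage and leukocyte markers S100a8 was called lower and Csf1r higher, and the summed levels overlapped (39.7 to 86.8 against 68.4 to 83.9 CPM). These counts were near the shares of all genes too. The count called higher was 0 without CDH11+/+ replicate 1 or CDH11-/- replicate 1, 3 or 4, and the count called lower was 4 without CDH11+/+ replicate 2 and 0 without CDH11+/+ replicate 3 or CDH11-/- replicate 1 or 2. The parts of these cell types in the member values were not tested.

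Other ligands and receptors of the family were mostly scarce. Nrp2, which encodes the co-receptor for VEGF-C and class 3 semaphorins, was the 1 of 5 called, beside 12.9% of all genes tested called lower. It had 48.0, 37.4 and 57.9 CPM in the CDH11+/+ libraries and 30.4, 29.6, 35.1 and 28.3 CPM in the CDH11-/- libraries, a log2 fold change of -0.63 (adjusted p = 0.00992, edgeR). Vegfc, at 1.39 to 2.03 CPM over all libraries, and Vegfd, at 4.89 to 6.72 CPM, had log2 fold changes of 0.28 and 0.15 and were not called. Pgf (0.214 to 0.283 CPM) and Angpt4 (0.187 to 0.751 CPM) were hardly detected. Without CDH11+/+ replicate 3, 1 of the 5 was called higher.

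Of 16 genes that modulate VEGF and TIE signalling, 8 were called lower and 0 higher, beside 12.9% and 16.8% of all genes tested. The median log2 fold change of this list was -0.41. Notch1, whose product restrains the sprouting response to VEGF, averaged 77.1 ± 4.55 CPM (SD, n = 3) in the CDH11+/+ and 47.8 ± 4.69 CPM (SD, n = 4) in the CDH11-/- libraries, 1.61-fold lower (adjusted p = 0.000503, edgeR). Adamts3, a protease that processes VEGF-C, fell from 2.46 ± 0.173 to 1.25 ± 0.17 CPM (adjusted p = 0.00238, edgeR). Ptprb, the endothelial phosphatase that acts on TEK, fell from 151 ± 4.41 to 118 ± 8.18 CPM (adjusted p = 0.00424, edgeR), and it also belongs to the endothelial marker list. Grem1, a BMP antagonist that can bind KDR, chosen after its values were seen, stood at 13.9, 37.1 and 11.9 CPM against 4.58, 2.65, 3.87 and 5.68 CPM (log2 fold change -2.32, SE 0.46, adjusted p = 0.0118, edgeR). Without CDH11+/+ replicate 3, 1 member of this list was called higher.

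Of 18 intracellular mediators 7 were called lower, 3 higher and 8 neither, beside 12.9% and 16.8% of all genes tested, so the count called higher was at the share of all genes. The list had a median log2 fold change of -0.16, and 4 of its genes were called lower without CDH11+/+ replicate 1. Pik3r1, the regulatory subunit of PI3 kinase, was 1.24-fold and Ptk2, focal adhesion kinase, 1.26-fold lower (adjusted p = 0.00284 and 0.00411, edgeR). Higher were Src (1.23-fold, adjusted p = 0.00342, edgeR) and, named after their values were seen, the catalytic subunit gene Pik3ca (1.32-fold) and the kinase C gene Prkca (1.30-fold).

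Of 12 genes that VEGF induces in cultured endothelium, 3 were called lower and 0 higher, beside 12.9% and 16.8% of all genes tested. Rcan1, a calcineurin inhibitor, averaged 109 ± 9.10 CPM (SD, n = 3) against 47.6 ± 9.54 CPM (SD, n = 4) and was 2.29-fold lower (adjusted p = 0.000644, edgeR). Tnfaip3, an inhibitor of NF-kappaB, and Unc5b, a netrin receptor of endothelial tip cells, were 1.62-fold and 1.39-fold lower (adjusted p = 0.00224 and 0.00301, edgeR). The count called lower was 5 without CDH11-/- replicate 4, 6 with limma-voom, 5 with limma-trend on the deposited values and 7 with DESeq2. These genes respond to other signals and are expressed in other kidney cells too.

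In the hypoxia-inducible factor list, whose products include inducers of Vegfa, 6 of 17 tested genes were called lower and 1 higher. The shares over all genes tested were 12.9% and 16.8%. Genes of the factors themselves are named after their values were seen. Hif1a and Epas1 were 1.19-fold and 1.21-fold lower (adjusted p = 0.0402 and 0.04, edgeR), close to the threshold. The groups overlapped for Hif1a, and Arnt was not called (adjusted p = 0.32, edgeR). The glycolytic regulator Pfkfb3 was 1.53-fold, the collagen prolyl hydroxylase P4ha1 1.40-fold and the glucose transporter Slc2a1 1.44-fold lower (adjusted p = 0.000323, 0.00206 and 0.0181, edgeR). The Slc2a1 log2 fold change was not called without CDH11+/+ replicate 1 (adjusted p = 0.0666) or 3 (0.0555). The gene called higher, named after its values were seen, was Ndrg1, at 818, 888 and 1057 CPM against 962, 1891, 2454 and 2527 CPM, so that CDH11-/- replicate 1 lay inside the CDH11+/+ range. That call was present, among the omissions of 1 library, only without CDH11-/- replicate 1. Without CDH11+/+ replicate 1 or 2 or CDH11-/- replicate 2 or 3, 3 genes were called lower.

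**Figure D5:**
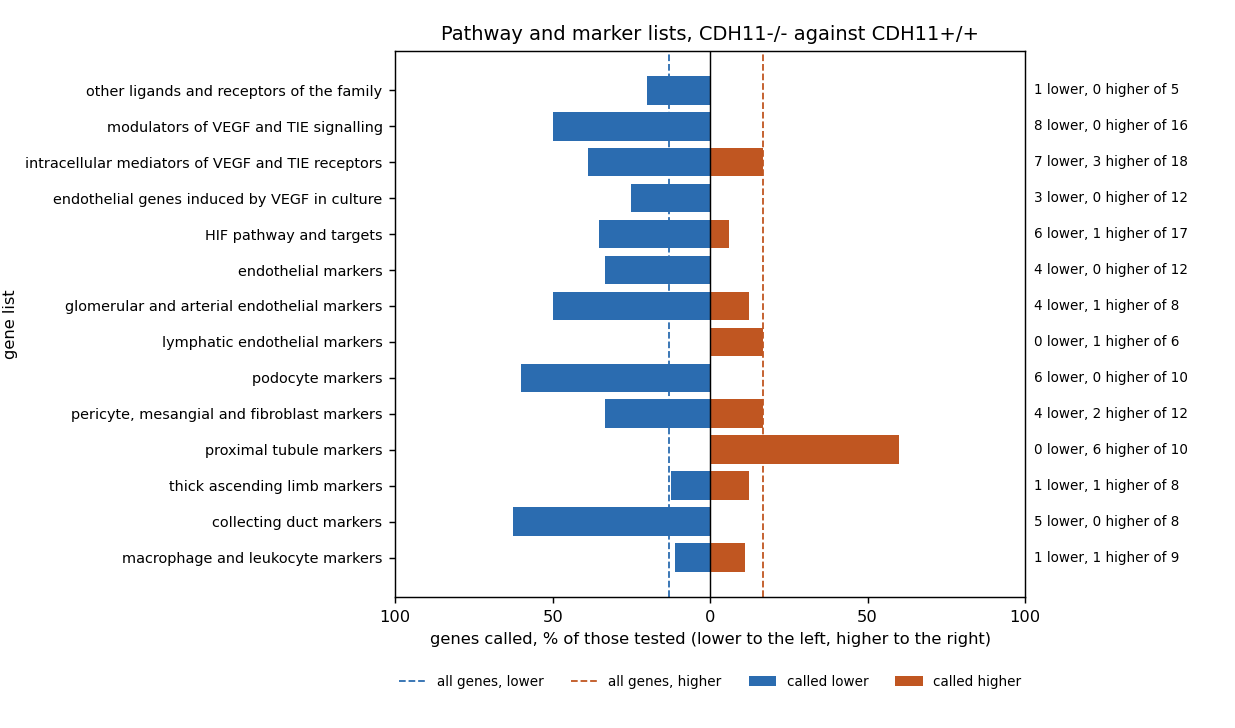
Share of the tested genes of each list (y axis) called lower (to the left) or higher (to the right) in the CDH11-/- libraries, in percent (x axis), with the counts beside each bar. Dashed lines mark the shares over all genes tested, 12.9% lower and 16.8% higher. Modulators (8 of 16), podocyte markers (6 of 10) and collecting duct markers (5 of 8) have long bars to the left, and proximal tubule markers (6 of 10) the longest to the right.

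The genes whose pattern over the 7 libraries was most like that of a member were found by the root mean square difference of centred log2 CPM, among 10401 other genes averaging 5 CPM or more. Nearest to Tek were Nrp1 (0.0568), Parp12 (0.0625) and Adgrl4 (0.0680), against a median of 0.248 over all genes compared. Adgrl4 encodes an adhesion receptor of endothelium, and Nrp1 is itself a member. Nearest to Flt1 were Dkk3 (0.0459), Slc20a1 (0.0479) and Adi1 (0.0864), with a median of 0.385. Nearest to Vegfa were Zfp787 (0.0207), Ltbp3 (0.0317) and Nfatc2 (0.0332), with a median of 0.199, and nearest to Kdr were Pim1 (0.0920), Prodh2 (0.0974) and the pseudogene Rps13-ps2 (0.117), with a median of 0.307.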

How the data were processed

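RNA of 7 mouse kidneys was measured by RNA sequencing of directional libraries, per the labels. The deposited table gives estimated counts per gene, which the authors rounded to whole numbers, and DRAGEN, DESeq2 and mm10 are named in the submitters' processing notes without versions or settings. A deposited table of normalized values (unit: signal) holds those counts divided by the authors' factors, which differ between genes of a library. Members were matched by Ensembl identifier. Of 42256 genes, 17964 passed filterByExpr and were tested with edgeR 4.0.16 (R 4.3.3; TMM scaling, robust quasi-likelihood test, 2-sided, Benjamini-Hochberg adjustment over all genes tested, threshold 0.05). Log2 fold changes are CDH11-/- over CDH11+/+. CPM uses the TMM-scaled library sizes. Standard errors are the log2 fold change over the square root of F, and 95% intervals use the t distribution with edgeR's degrees of freedom. Values relative to endothelial markers were compared by an exact permutation test (SciPy 1.17.1). The biological coefficient of variation was 15.2%, and member counts ran from 132 to 18153 per library. Alternatives were RLE and upper-quartile scaling, other filters, no robust estimation, omission of each library, DESeq2 1.42.0, and limma 3.58.1 (voom, and limma-trend on log2 of the deposited values with a pseudocount of 1). An edgeR fit whose offsets are the factors behind the authors' normalized values was added after the data were seen. The edgeR fit was tested on simulated data. The members and gene lists were chosen with earlier results of these data known. Named outside the members are up to 3 called genes per list by adjusted p, and the 3 nearest patterns to Vegfa, Kdr, Flt1 and Tek, leaving out predicted gene models. Exceptions are stated.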

Additional observations from a re-analysis of the deposited data

Results flagged for a closer look

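In 3 of 52 sets of 4 CDH11-/- values examined, 1 library stood off from the other 3 by more than Dixon's 95% critical value for 4 samples, which chance gives in about 1 of 20 sets. For Vegfa, CDH11-/- replicate 4 had 165.8 CPM, below the others by 0.840 of the range. For the collecting duct sodium channel gene Scnn1g, CDH11-/- replicate 3 had 35.3 CPM, below the others by 0.892 of the range. For S100a8, a neutrophil gene, CDH11-/- replicate 4 had 0.351 CPM, above the others by 0.877 of the range.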

How the results depend on the processing

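Over 16 alternative settings, 149 of 160 member values kept direction and side of the threshold, 6 lost the call (Vegfa 1, Tek 4, Tie1 1, all on omission of 1 library) and 5, all of Vegfb and none of them called, changed sign. The calls of Flt1 and Nrp1 were kept in all 16 settings. The Vegfb log2 fold change ran from -0.083 to 0.093 on leaving out 1 library at a time (0.093 without CDH11+/+ replicate 3, 0.020 without CDH11-/- replicate 4) and was 0.018 with the deposited factors as offsets, 0.048 with limma-voom and 0.022 with limma-trend, and the cause was not tested. On leaving out 1 library at a time, the members called lower numbered 3 to 5. The same omissions gave 0 to 1 other ligands and receptors higher, 0 to 1 modulators higher with 6 to 10 lower, 4 to 7 mediators lower, 3 to 5 VEGF-induced genes lower, and 0 to 1 HIF genes higher with 3 to 5 lower. Endothelial markers called lower numbered 3 to 6, podocyte markers called lower 5 to 8 and proximal tubule markers called higher 5 to 7. Among other markers the omissions gave 2 to 4 glomerular and arterial lower, 0 to 1 lymphatic lower, 0 to 2 pericyte, mesangial and fibroblast higher and 1 to 3 lower, 0 to 1 thick ascending limb higher and 1 to 3 lower, 2 to 5 collecting duct lower, and 0 to 1 macrophage and leukocyte higher and 0 to 4 lower. Among the other settings, VEGF-induced genes called lower numbered 6 (limma-voom), 5 (limma-trend) and 7 (DESeq2). HIF genes called higher numbered 0 with no filter, with offsets and with limma-trend. Lymphatic markers lower numbered 1 with DESeq2. Pericyte, mesangial and fibroblast markers higher numbered 1 with no filter, and lower 2 with offsets and limma-trend. Thick ascending limb markers lower numbered 2 with limma-voom and 4 with DESeq2. Macrophage and leukocyte markers higher numbered 0 with no filter, and lower 0 with a mean of at least 1 CPM. The causes were not tested. No setting moved the median log2 fold change of all genes beyond 0.0269 in either direction. No paired analysis was possible because the labels give no replicate numbers shared across the groups. With 3 and 4 libraries the 2-sided exact permutation test used, which doubles the smaller tail, cannot go below p = 0.0571. The spread of Angpt2 between libraries limits what can be said of that gene.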
